A study of Homo sapiens with 26 samples.

Results

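Of the 6173 ZBTB24 peaks in the authors' merged list, 1322 lay in gene deserts, which is 21.4% of the list (95% Wilson interval 20.4% to 22.5%). A desert peak was one whose midpoint fell outside every transcript of the authors' assembled annotation and more than 50 kb from the nearest transcript start. The rule used positions alone and no measured height. The remaining peaks served for comparison and comprised 1142 promoter peaks within 1 kb of a start, 1721 gene body peaks and 1988 nearer intergenic peaks.

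ZBTB24 is a zinc finger protein, and loss of it causes ICF syndrome, a human immunodeficiency with unstable centromeric chromatin and loss of DNA methylation at pericentromeric repeats. DNMT3B, a de novo DNA methyltransferase, is mutated in the same syndrome and is known for methylating the bodies of transcribed genes. Gene deserts are long stretches without genes, and some carry distant regulatory elements of developmental genes that lie at their borders.

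All samples came from HCT116, a human colorectal cancer cell line. ChIP-seq with an antibody against the FLAG tag was run on lines 5, 7 and 11 that stably express FLAG-tagged ZBTB24, on 2 lines with FLAG-tagged DNMT3B and on 2 FLAG-only lines. RNA-seq compared 3 libraries with a hairpin against ZBTB24 (shZBTB24) with 3 carrying a non-targeting hairpin (shNT), 2 FLAG-ZBTB24 libraries with 2 FLAG-only libraries, and 1 DNMT3B knockout library with 1 wild-type library. The stable lines were made by lentiviral infection under puromycin, and each FLAG line was grown from a single cell, so a difference between clones cannot be told apart from a difference between constructs. The ectopic protein adds to whatever ZBTB24 the cells make themselves, and the ChIP-seq read only the tagged copy.

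Peaks of the 3 FLAG-ZBTB24 lines stand in 1 merged list with no value per line, so no spread between lines and no sequencing depth could be given for any peak. The labels do not say whether peaks of the FLAG-only lines were subtracted. Each score printed is the authors' own, and they do not name its kind. In the authors' deposited tables of expression only changed loci are listed, so the cell type could be checked at few genes. They gave 2 of 10 colorectal epithelial markers, CDH1 and CDX2, and 1 of 8 markers of other cells, VIM. CDH1, the epithelial cadherin, had 46.3 FPKM with shNT and 23.2 FPKM with shZBTB24 in the authors' deposited table, and 29.2 FPKM in FLAG-only and 42.5 FPKM in FLAG-ZBTB24 cells. CDX2, an intestinal transcription factor, had 6.90 FPKM with shNT and 18.8 FPKM with shZBTB24 in the authors' deposited table. VIM, a mesenchymal filament protein, had 3.80 FPKM in wild-type and 629 FPKM in knockout cells in the authors' deposited table, and under 1 FPKM in both FLAG groups. ZBTB24 shares its locus with MICAL1 in the authors' deposited table for FLAG-ZBTB24, where that locus had 17.8 FPKM without and 155 FPKM with the tagged protein (log2 fold change 3.12, q = 0.0192). The ZBTB24 locus was not among the changed loci listed for the knockdown, so a fall of the targeted gene could not be checked there. This limits every knockdown value given here.

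Desert sequence made up 855.5 Mb, or 29.7%, of the 22 autosomes and carried 1.55 ZBTB24 peaks per Mb. Promoter sequence carried 8.53 peaks per Mb, nearer intergenic sequence 3.06, gene bodies 1.39 and all autosomal sequence 2.14. Deserts were therefore below the average of the autosomes and just above gene bodies. The desert total includes centromeres and short arms that the assembly does not resolve. Transcript-free intervals longer than 3 Mb numbered 23, held 187 Mb of desert sequence and contained 3 desert peaks, and 20 of them were empty. Without these intervals, a step chosen after seeing the data, 1319 desert peaks lay in 668 Mb, at 1.97 per Mb.

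Density fell with distance from transcript starts at first and then levelled off. Outside transcripts it was 11.3 peaks per Mb within 1 kb of a start, 3.48 between 1 and 5 kb and 2.74 between 25 and 50 kb. Inside the deserts it was 2.37 per Mb between 50 and 100 kb (522 peaks), 1.86 between 100 and 200 kb (392 peaks) and 1.57 between 200 and 500 kb (322 peaks). The 86 peaks beyond 500 kb gave 0.393 per Mb. That last value changed most when the 23 long intervals were left out: the same 86 peaks then lay in 50.1 Mb, at 1.72 per Mb, beside 1.66 per Mb between 200 and 500 kb. The drop beyond 500 kb was thus present only with the long intervals counted.

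**Figure D1:**
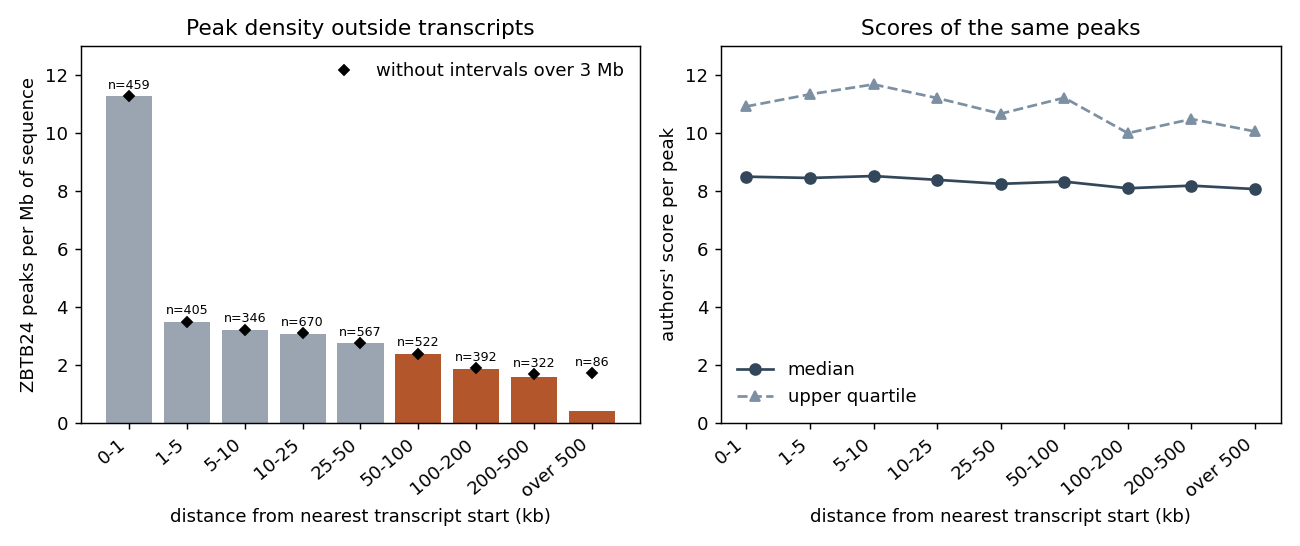
Left, ZBTB24 peaks per Mb of transcript-free autosomal sequence against distance from the nearest transcript start in kb, with desert bins in brown, nearer bins in grey and the count of peaks above each bar; black diamonds give the density without transcript-free intervals over 3 Mb. Right, the median and upper quartile of the authors' score for the same peaks, which stay between 8.06 and 8.51 and between 9.99 and 11.7 at every distance.

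The distance of desert peaks from the nearest start ranged from 50.1 to 1189 kb, with a median of 119.9 kb and an upper quartile of 242.8 kb. More than 100 kb separated 800 of them from any start, and 4 lay beyond 1 Mb. The rule measured distance from starts, so a desert peak could still lie close to the 3′ end of a gene. Counting ends as well as starts, 28 of 1322 desert peaks (2.12%, 95% Wilson interval 1.47% to 3.04%) were within 10 kb of a transcript and 144 (10.9%, 9.33% to 12.7%) within 50 kb. The other 1178 were over 50 kb from any transcript.

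At the limit itself, the 3 closest members were 50056.5 bp from the start of MME, which encodes the peptidase neprilysin (chr3:154747309-154747450, score 4.89), 50092 bp from the start of CYP2J2, an arachidonic acid epoxygenase (chr1:60442464-60442566, score 5.50), and 50108 bp from an unnamed transcript near TOB1, an antiproliferative gene (chr17:49025157-49025311, score 9.98). The 3 peaks just outside were 49945.5 bp (chr3:176668913-176669140, score 6.60), 49878 bp (chr2:188783979-188784133, score 8.07) and 49805.5 bp from a start, the last that of the EGF receptor ligand TGFA (chr2:70830765-70831140, score 5.53). Scores on both sides of the limit covered similar values.

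Desert peaks had scores close to those of the whole list. Their median was 8.21 (95% order-statistic interval 7.98 to 8.36), with quartiles of 6.78 and 10.6 and a range from 1.78 to 42.2. The median was 8.37 for promoter peaks, 8.10 for gene body peaks, 8.38 for nearer intergenic peaks and 8.26 for all peaks. Desert peaks were 191 bp wide at the median (quartiles 149 and 322 bp, range 3 to 1705 bp), the same median as the whole list. Across the 1322 desert peaks, score and distance from the nearest start had a Spearman rho of -0.04, and score and width had one of 0.55. Peaks in one list share libraries and depth, so these are descriptions.

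The difference between classes lay at the top of the list. Among the 617 highest peaks, the top 10%, 122 were desert peaks (19.8%), close to their share of the list. Among the 62 highest, the top 1%, 4 were desert peaks (6.45%), beside 26 promoter peaks, 26 nearer intergenic peaks and 6 gene body peaks. One desert peak was among the 10 highest.

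That peak, chr3:164621382-164623043, scored 42.2 and ranked 8 of all 6173. It lay 72.9 kb upstream of the non-coding RNA gene LINC01324, with SI, the gene of the brush border enzyme sucrase-isomaltase, on its other side. It was 1662 bp wide, among the 3 widest desert peaks, and 3 narrow peaks with scores of 21.0 to 23.5 stood within 1.04 kb of it. Within 400 kb on either side the list held only 3 more peaks, the highest of them a gene body peak of score 21.0.

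The next desert peak, chr2:34590506-34591197, scored 34.8 and lay 311.8 kb upstream of LINC01320, another non-coding RNA gene, and 68.0 kb from the end of LINC01317. The third, chr10:54784898-54785678, scored 32.1 and lay 253.8 kb upstream of MBL2, which encodes a mannose-binding lectin of innate immunity. The fourth, chr11:22940536-22942240, scored 31.6, was the widest desert peak at 1705 bp and lay 59.4 kb upstream of CCDC179. Its neighbour chr11:22942304-22942624, 1.08 kb away between midpoints, scored 27.5 and was itself the seventh highest. The remaining one of the 3 widest, chr7:88195982-88197623, scored 21.7 and lay 191.9 kb upstream of ZNF804B, a zinc finger gene. Around each of the 3 highest, peaks beyond 10 kb but within 400 kb numbered 3, 1 and 2.

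The other 7 of the 12 highest scored between 26.4 and 27.8. On chromosome 4 they were chr4:109209120-109209545 near LEF1-AS1, the antisense partner of the Wnt pathway factor LEF1, chr4:157433854-157434512 near the growth factor gene PDGFC, and chr4:6021188-6021636. The last was 96.4 kb from the start of MIR378D1 but only 6.51 kb beyond the end of JAKMIP1. Elsewhere they were chr20:46860462-46861576 near LINC00494, chr1:105530142-105530507, which lay 631.2 kb from any start, chr7:93003875-93004336 near MIR653 and 13.7 kb beyond VPS50, and chr12:38936917-38937223 between ALG10B and CPNE8. Of the 12 highest, 2 were therefore within 20 kb of a named gene's end, and the other 10 were at least 59.4 kb from any named transcript.

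The 5 desert peaks farthest from a start had ordinary scores. On chromosome 11, 4 of them lay between JRKL-AS1 and CNTN5, the gene of a neural adhesion protein of the contactin family. They were chr11:97702307-97702429, 1189 kb from the nearest start (score 7.13), chr11:97630410-97630712 at 1169 kb (5.76), chr11:97593214-97593384 at 1132 kb (5.48) and chr11:97448742-97448882 at 987 kb (7.46). The fifth was chr4:60611725-60611870 at 1066 kb (7.74).

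The lowest score of the list and the next lowest also lay in deserts. The lowest of all 6173 was chr10:42387263-42387406 with a score of 1.78, and the next was chr17:22253060-22253299 with 1.98. Both fell inside the longest transcript-free interval of their chromosome, which holds the centromere. The third lowest desert peak, nearest to LINC01608, scored 3.40 and ranked 6167, so peaks of other classes stood between.

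Chromosomes 1, 9 and 16 carry the pericentromeric repeats that lose DNA methylation in ICF syndrome. Their longest transcript-free intervals, chr1:121485435-142619242 (21.1 Mb), chr9:47168793-65487272 (18.3 Mb) and chr16:35040710-46390031 (11.3 Mb), held 0 members each. Within 5 Mb on both sides of these intervals there were 0 members on chromosome 1, 4 on chromosome 9 and 2 on chromosome 16. Reads from satellite repeats cannot be placed uniquely and much of this sequence is missing from hg19, so absence from the list says nothing about binding there.

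Chromosomes differed in their desert share and density. Chromosome 4 had the most members, 166 of its 484 peaks (34.3%, 95% Wilson interval 30.2% to 38.6%), and chromosome 13 had 69 of 202 (34.2%, 28.0% to 40.9%). At the other end, chromosome 19 had 2 of 144 (1.39%, 0.382% to 4.92%) and chromosome 21 had 2 of 41 (4.88%, 1.35% to 16.1%). Without the long intervals, density ran from 0.215 members per Mb on chromosome 21 and 0.587 on chromosome 19 to 2.56 on chromosome 17 and 2.76 on chromosome 6. On every autosome it was below the density of nearer intergenic sequence, by the smallest margin on chromosome 13 (2.04 against 2.10 per Mb). Chromosome 16 combined 0.613 members per Mb with 2.53 per Mb in its nearer intergenic sequence. The X chromosome had 58.3 Mb of desert and 0 ZBTB24 peaks of any class, whereas the DNMT3B list had 17 peaks there. The labels do not say whether chromosome X was left out of the ZBTB24 list.

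**Figure D2:**
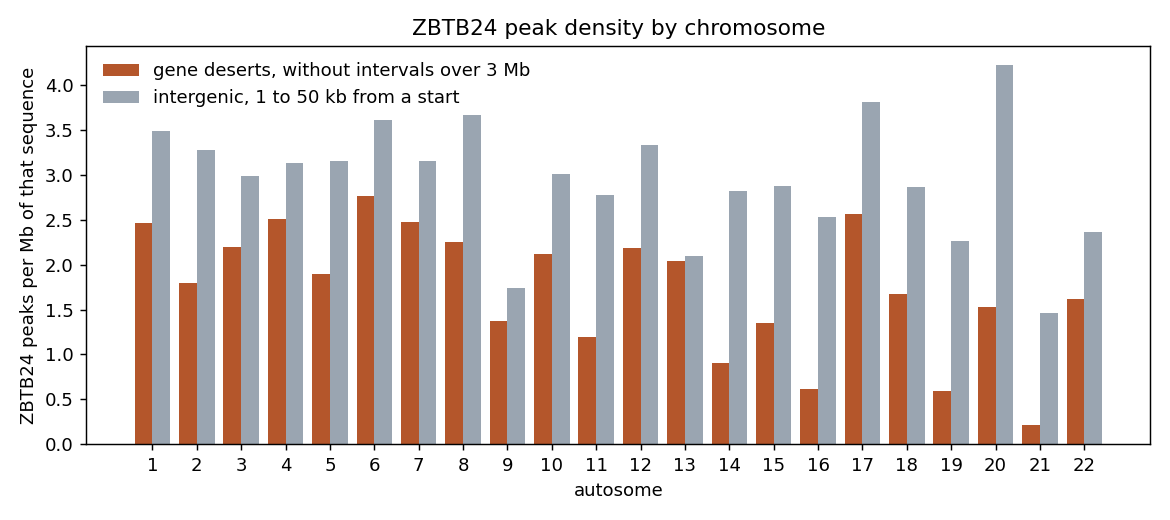
ZBTB24 peaks per Mb on each autosome, in gene deserts without transcript-free intervals over 3 Mb (brown bars) and in intergenic sequence 1 to 50 kb from a start (grey bars). The brown bar is the lower one on each of the 22 autosomes and nearly level with the grey one on chromosome 13 (2.04 against 2.10).

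Most deserts held no peak. Of 3671 transcript-free intervals with desert sequence, 765 (20.8%) held at least 1 member. A single member was present in 479 of them, 249 held 2 to 4, and 37 held 5 or more, with 225 members in all. Intervals with a member had a median length of 322 kb, against 145 kb without. Longer intervals offer more sequence for a peak, and these counts were not adjusted for length. The most members in one interval were 9. They were reached between MBL2 and PCDH15, the gene of a protocadherin of hair cells, on chromosome 10 (chr10:54531461-55562532), and between SLITRK6, which encodes a neuronal membrane protein, and MIR4500HG on chromosome 13 (chr13:86373484-87840594). Scores in the first ran from 7.98 to 32.1 and in the second from 4.88 to 9.67.

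Counted line by line, desert peaks had close neighbours more often than other peaks. Another ZBTB24 peak lay within 10 kb of 333 of them (25.2%, 95% Wilson interval 22.9% to 27.6%), against 22.1% of nearer intergenic peaks, 19.5% of promoter peaks and 19.4% of gene body peaks. Most of this came from peaks within 1 kb, which 267 desert peaks had (20.2%, 18.1% to 22.4%), against 14.6%, 14.3% and 13.5% in the same order. Such neighbours were separated by a median of 74.5 bp, and 11 of the 144 neighbouring pairs carried exactly the same score.

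When peaks within 1 kb of each other were joined to 1 site, a step chosen after seeing the data, the 1322 peaks became 1178 desert sites. Of these, 123 were made of several peaks (10.4%, 95% Wilson interval 8.82% to 12.3%), against 7.37% of nearer intergenic sites (6.26% to 8.65%), 7.47% of promoter sites (6.03% to 9.21%) and 6.77% of gene body sites (5.64% to 8.11%). Sites of several peaks had a median highest score of 9.75 in deserts, and single ones had 8.07. The highest of several scores tends to exceed a single score, so this order says nothing about the sites. It was also present for promoter (9.98 and 8.29), gene body (9.43 and 8.07) and nearer intergenic sites (10.7 and 8.28). After joining, another site within 10 kb was found for 83 desert sites (7.05%, 5.72% to 8.65%), against 7.66% of all sites. The share was 9.49% for nearer intergenic sites (8.23% to 10.9%), 6.95% for gene body sites (5.81% to 8.31%) and 6.24% for promoter sites (4.93% to 7.86%). Desert sites were thus broken into several lines of the list more often. Their crowding was close to that of gene body and promoter sites and below that of nearer intergenic sites. Peaks on the same site share reads, so these intervals cover counting error only.

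**Figure D3:**
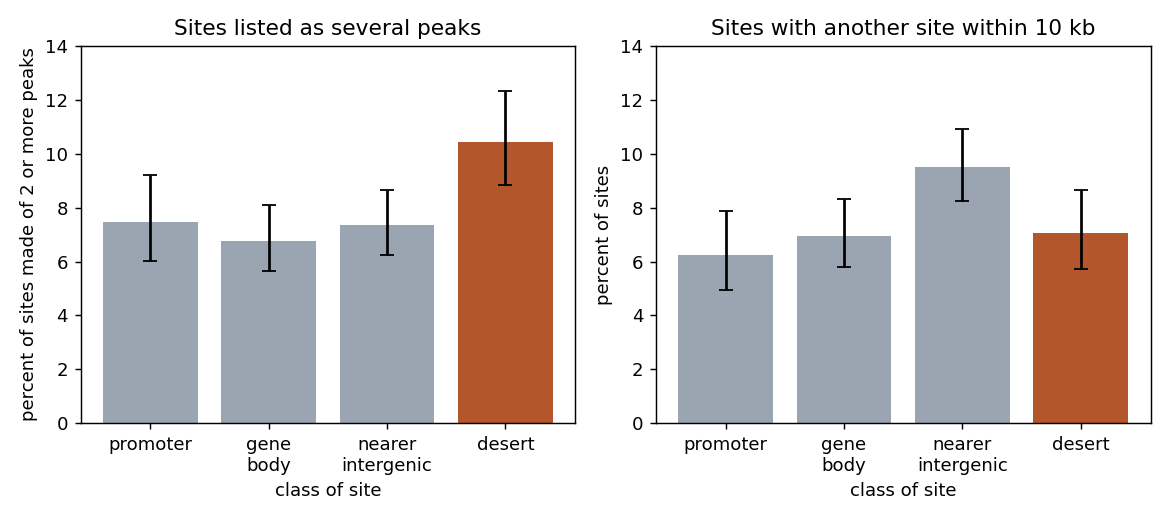
Percent of ZBTB24 sites, made by joining peaks within 1 kb, that consist of 2 or more listed peaks (left) and that have another site within 10 kb (right), for the 4 classes of site; error bars are 95% Wilson intervals. Desert sites (brown) are the highest on the left at 10.4%. On the right they stand at 7.05%, below the nearer intergenic sites at 9.49% and close to gene body (6.95%) and promoter sites (6.24%).

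Joined at gaps of up to 10 kb, desert peaks formed 1135 runs, of which 144 had several members (331 peaks), 30 had 3 or more and the longest had 6. One run of 6 lay at chr10:54784688-54790267 near MBL2. From left to right its peaks scored 23.3, 32.1, 25.7, 7.98, 9.21 and 9.09, the last pair 4.73 and 4.96 kb from the highest. The other run of 6, chr4:90940064-90952191 between MMRN1, which encodes a platelet protein, and CCSER1, had lower scores from 7.12 to 13.5 spread over 12128 bp in 3 sites. The 4 peaks of chr3:164621193-164623373 belonged to the highest desert peak described above, and 2 of its flanking pieces carried the same score of 21.0. A run of 4 at chr1:83122741-83128106, between the adhesion receptor gene ADGRL2 and LINC01361, scored 5.03 to 12.4.

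**Figure D4:**
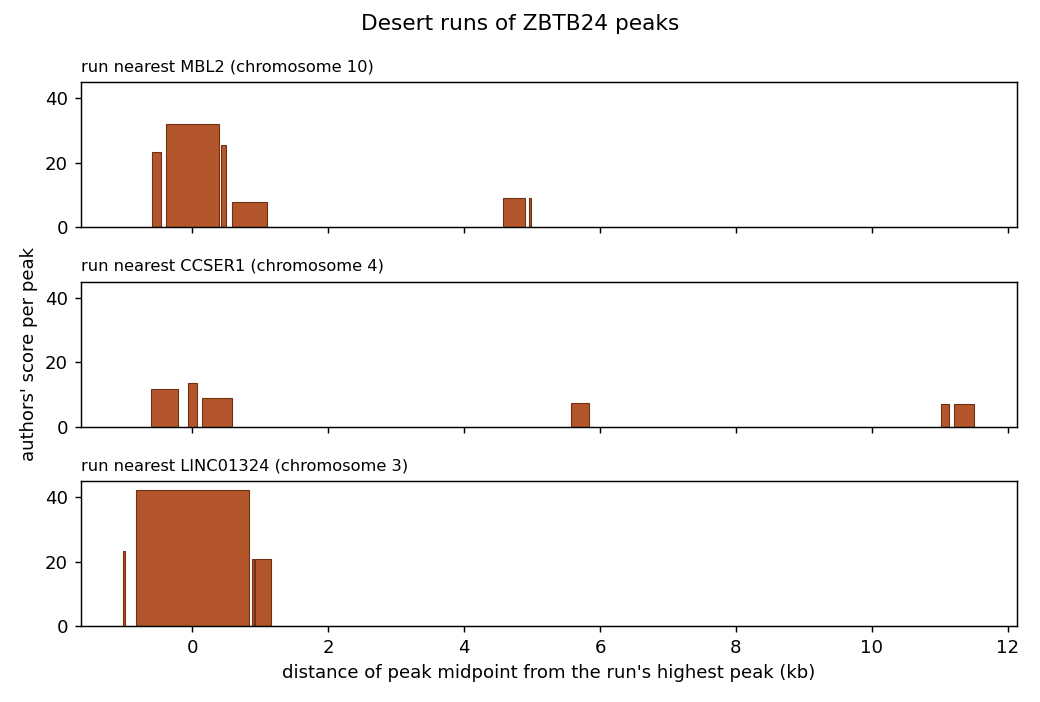
The 3 desert runs near MBL2, CCSER1 and LINC01324, each panel named by the nearest gene. Each bar is 1 peak, drawn to its width and placed by its distance in kb from the run's highest peak, with the authors' score as its height; the highest bars reach 42.2 near LINC01324 and 32.1 near MBL2.

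The decimals of the scores were compared as well. Every desert score could be written as the mean of 3 values or the mean of 2 values with 5 decimals, within a tolerance of 0.02 of the last digit's unit. For 551 desert peaks both were possible. Of the 771 that could be decided, 454 (58.9%, 95% Wilson interval 55.4% to 62.3%) had the decimals of a mean of 3, against 64.9% of promoter peaks (61.2% to 68.4%), 63.4% of nearer intergenic peaks and 58.4% of gene body peaks. Within deserts the share was 61.0% between 50 and 100 kb, 65.3% between 100 and 200 kb, 50.8% between 200 and 500 kb and 47.2% beyond 500 kb. A mean of 2 fits both forms more often than a mean of 3 does. Shares among decided peaks therefore lean towards 3 in every class, which the intervals do not cover. The labels do not give the number of lines behind each peak, so these shares describe decimals only.

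No desert peak overlapped a DNMT3B peak. The count was 0 of 1322, which allows a share of up to 0.227% by 3 counts, and the median distance to the nearest DNMT3B peak was 709 kb. The closest, 14.8 kb away, was the member near TOB1. Overlaps were rare in all classes: gene body peaks had 5 of 1721, and promoter and nearer intergenic peaks had 0. The DNMT3B list itself hardly entered the deserts. Of its 15909 peaks, 6 (0.0377%) met the desert rule and 14505 (91.2%) lay in gene bodies.

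By nearest named start, the 1322 peaks belonged to 795 genes out of 25085 named in the annotation. For 649 peaks (49.1%) an unnamed assembled transcript was closer still. The median distance to a named start was 174 kb, and 719 peaks (54.4%) lay upstream of the gene. Protein-coding genes made up 61.3% of the 795, against 72.4% of all named genes. Long non-coding RNA genes made up 19.9% against 11.2%, and microRNA genes 7.04% against 6.80%. Only 4475 of all named genes bordered any desert, and kinds were not counted among those alone. Genes named LINC, which are long non-coding RNAs, included 81 of 851 nearest to a member (9.52%), and zinc finger genes named ZNF 9 of 552 (1.63%), against 3.17% of all named genes. Among genes that bordered any desert, the shares were 19.9% for LINC, 13.4% for ZNF and 17.8% for all named genes.

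Neural adhesion genes are known to border large deserts. Of 35 listed, 12 were nearest to a member: CDH2, CDH7, CDH9, CDH18, PCDH7, PCDH10, PCDH15, PCDH18, PCDH20, CNTN5, CNTNAP2 and ADGRL3. Together they had 30 members in 18.8 Mb of desert assigned to the 35 genes, or 1.60 per Mb, beside 1.55 per Mb for all desert sequence. Per Mb of desert, these genes were thus near the average. LINC genes likewise had 149 members in 104 Mb (1.43 per Mb), and ZNF genes 11 in 10.1 Mb (1.09 per Mb). CDH2, which encodes N-cadherin, had 5 members 638.2 to 921.5 kb upstream, with scores of 8.36 to 12.4.

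Of 20 genes of the Wnt pathway and of colon enhancers, 7 bordered any desert, beside 4475 of all 25085 named genes. The desert of these genes came to 0.738 Mb and held 7 members, or 9.49 per Mb beside 1.55 per Mb for all desert sequence. That rate rests on few members in little sequence. These were 3 near KLF5, a transcription factor of intestinal crypts, 3 near TGFBR2, a receptor for TGF-beta, and 1 near SOX9, a transcription factor of intestinal stem cells. All 7 had scores between 5.51 and 8.78, below the median of all peaks for 6 of them. Among 14 immediate early genes, only EGR2, a zinc finger factor, bordered any desert, so no other could have a member. It had 4 members 103.1 to 116.2 kb upstream in 0.107 Mb of desert (37.4 per Mb, from a single run), led by chr10:64681831-64682305 with a score of 12.3. Among the 4 ICF syndrome genes, only CDCA7, whose product is known to recruit the remodeller HELLS to chromatin, bordered any desert. That desert, 0.038 Mb, held 1 member. It lay 94.7 kb from the start on the downstream side at chr2:174314026-174314443, with a score of 16.4.

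Expression could be read at the nearest genes only where the authors' deposited tables list them, and nearest is a matter of position, not of regulation. After ZBTB24 knockdown, 59 listed loci were nearest to 90 desert peaks, and 15 of them passed a q of 0.05 in the authors' deposited table. Of the 59, 6 rose (10.2%) and 9 fell (15.3%), against 12.2% and 9.82% of all loci in the authors' deposited table. More falls than rises were also seen for loci nearest to gene body peaks (5 rose and 17 fell of 91). Rises were more frequent for promoter (20 and 11 of 130) and nearer intergenic peaks (22 and 17 of 144). The 15 loci were nearest to 30 desert peaks, or 2.27% of the members (95% Wilson interval 1.59% to 3.22%). The same share was 2.28% for all ZBTB24 peaks, 2.89% for promoter peaks, and 1.82% over all named genes. At q under 0.05, desert peaks were thus next to knockdown genes about as often as other ZBTB24 peaks. Any listed locus was nearest for 6.81% of desert peaks and 8.33% of all ZBTB24 peaks. That share was 12.5% for promoter peaks, 8.45% for nearer intergenic peaks and 6.57% for gene body peaks. CDH1 and CDX2 moved in opposite directions in the same comparison, and their part in these values was not tested.

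The gene with the largest rise was SAMD9, an interferon-inducible antiviral gene. In the authors' deposited table it had 2.44 FPKM with shNT and 16.5 FPKM with shZBTB24 (log2 fold change 2.75, q = 0.00493). Its 3 desert peaks lay 74.5 to 124.0 kb away on the downstream side, with scores of 8.97 to 10.5. The authors' deposited table shows that GALNT5, an enzyme that starts O-linked glycosylation, rose from 0.448 to 1.37 FPKM (log2 1.62, q = 0.0285). Its 4 members formed a single site about 364 kb upstream, which scored up to 11.6. By the authors' deposited table AHR, the receptor for dioxin and related ligands, rose from 17.1 to 29.4 FPKM (log2 0.78, q = 0.0206) and had a pair of peaks 112.4 kb upstream. In the authors' deposited table the other rises were LINC00470 (log2 2.04), the desmosomal cadherin DSC3 (0.86) and COX7C, a subunit of cytochrome c oxidase (0.83).

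The largest fall in the authors' deposited table was that of CNTNAP2, a contactin-associated neural adhesion protein, from 1.35 to 0.319 FPKM (log2 -2.08, q = 0.00493). Its member lay 424.1 kb upstream with a score of 8.64. In the authors' deposited table PCDH7, a protocadherin, fell from 41.9 to 21.8 FPKM (log2 -0.94, q = 0.00493). It was the called gene with the most members, 5 of them 225.2 to 917.5 kb upstream, led by chr4:30261498-30262539 with a score of 19.5. Both genes also had ZBTB24 gene body peaks assigned, 3 for PCDH7 and 2 for CNTNAP2.

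SNAI2, a repressor of epithelial genes, fell in the authors' deposited table (2.41 to 0.743 FPKM, log2 -1.70, q = 0.0238), with 1 member 85.4 kb away. ANXA10, an annexin, had the highest member of all called genes, chr4:168930807-168931722, with a score of 23.05 at 82.4 kb upstream. It fell in the authors' deposited table (12.03 to 5.50 FPKM, log2 -1.13, q = 0.0316). Other falls in the authors' deposited table included the sulfotransferase CHST1 (log2 -1.88), the imprinted gene PEG10 (-1.51), the synaptic vesicle protein SYT1 (-1.36) and the collagen COL12A1 (-0.85). None of the 15 genes had a ZBTB24 promoter peak by nearest start, and for 10 of them desert peaks were the only ZBTB24 peaks assigned. Of the other 44 listed loci, 6 had a promoter peak and 29 had desert peaks only.

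**Figure D5:**
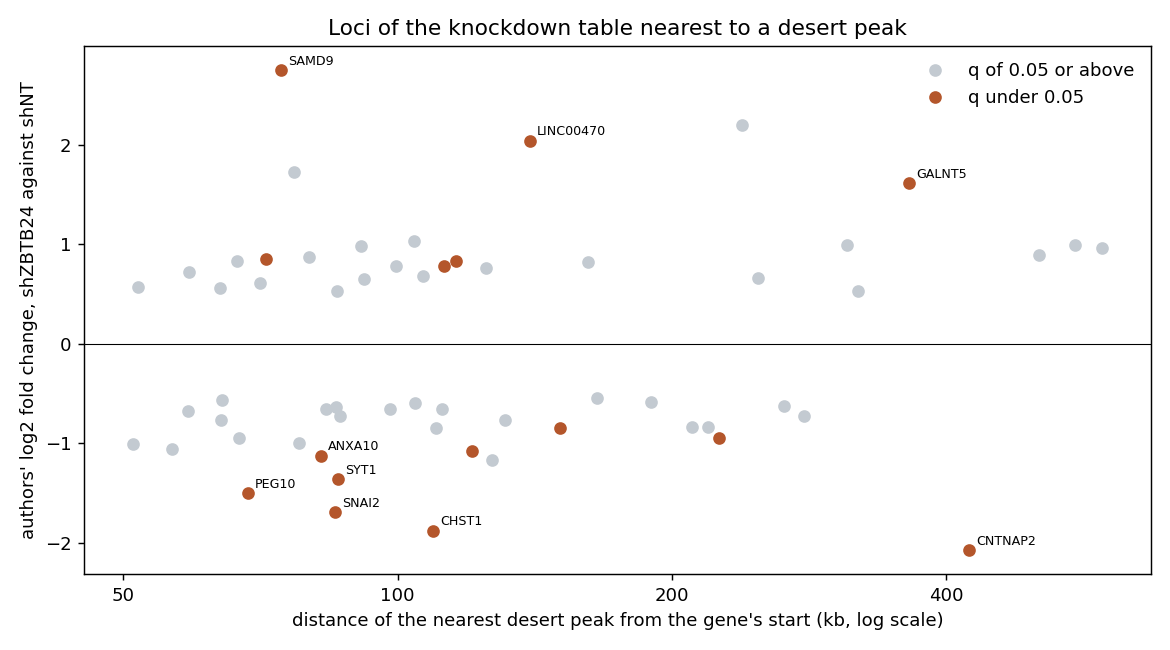
Log2 fold change of shZBTB24 over shNT from the authors' deposited table against the distance in kb (log scale) of the closest desert peak, for the 59 listed loci nearest to a desert peak. The 15 loci with q under 0.05 are brown and the 9 largest changes among them are named; the 15 lie on both sides of 0 between 68.5 and 424.1 kb, and no point falls near 0 because the table holds only changed loci.

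With FLAG-ZBTB24, 56 listed loci were nearest to a desert peak. None passed q in the authors' deposited table, where 0.57% of all loci did. At an unadjusted p under 0.05 there were 7 (12.5%), against 9.92% in the authors' deposited table, and all 7 were lower with FLAG-ZBTB24. Lower loci were also the larger group at that p in the whole of the authors' deposited table, with 113 of 174, and among the loci nearest to any ZBTB24 peak, with 32 of 49. They were RPL22L1, MAMDC2, KLF4, EGR2, CXCR4, ARRDC3 and ADGRF1, named after their values were seen. KLF4, a transcription factor of intestinal differentiation, had 31.0 FPKM in FLAG-only and 13.5 FPKM in FLAG-ZBTB24 cells by the authors' deposited table (log2 -1.19, q = 0.335). It was also lower after knockdown in the authors' deposited table (60.3 and 37.6 FPKM, log2 -0.68, q = 0.0963), so neither value passed. Its 3 members included chr9:110310769-110311034, 58.9 kb upstream with a score of 22.3. By the authors' deposited table EGR2 had 2.19 and 0.844 FPKM in the same cells (log2 -1.37, q = 0.485).

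The DNMT3B knockout rows list only loci that were higher than wild type, with 1 library on each side and no replicate check. Of them, 74 loci were nearest to a desert peak, 0 passed q in the authors' deposited table, where 0.312% of all loci did, and 8 (10.8%) had an unadjusted p under 0.05, against 9.36% in the authors' deposited table. Their median log2 fold change was 2.42, against 2.12 for the whole of that authors' deposited table. Loci nearest to gene body peaks had a median of 2.65, those nearest to nearer intergenic peaks 2.38 and those nearest to promoter peaks 1.64. The part of the shift in VIM in these values was not tested. SAMD9, PEG10 and AQP7P1 stood in all 3 tables and were named after their values were seen. In the authors' deposited tables SAMD9 had a log2 fold change of 2.75 for knockdown, -0.76 for FLAG-ZBTB24 and 4.27 for the knockout. PEG10 had -1.51, 0.52 and 3.30 in the same authors' deposited tables. AQP7P1, a pseudogene whose near-identical copies make its reads uncertain, had -0.94, -0.54 and 2.07 in the authors' deposited tables. Of these 9 values, only the knockdown values of SAMD9 and PEG10 passed the threshold.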

How the data were processed

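The authors deposited merged FLAG peak lists for ZBTB24 and DNMT3B with 1 score per peak, and an assembled annotation. HISAT2, StringTie, Cufflinks and MACS2 were used with hg19, per the submitters' processing notes, with versions not given in the sources used here. For expression, the authors deposited 1 pooled FPKM value per group, so the depth is unknown. The deposited tables also give the authors' log2 fold change and their p-value and q-value per locus.

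From these, peaks were classed by midpoint with Python 3.11.15, pandas 2.3.3 and scipy 1.17.1, checked on simulated regions. Starts come from 127308 transcripts, 73520 of them unnamed. Promoter classification came before gene body. Intervals on shares are Wilson intervals at 95% and reflect counting error alone. No test was run, since 1 merged list has no replicates. Desert sequence per nearest gene was counted on a grid of 500 bp. Gene kinds came from RefSeq symbols, which matched 91.8% of nearest genes.

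Named regions were the 12 highest, 5 farthest, 3 widest and 3 lowest members, the 5 largest runs, 3 peaks on each side of the limit, and the 20 highest members nearest to a called locus. SYT1 fell outside that rule. Some regions and genes under the rule are not reported here. Members and lists were chosen with earlier results of these data known. The hairpin libraries are not stated to be separate cultures, so p-values there may measure technical spread. Knockout rows under a label that matches no sample were not used. Motifs and peak sequences were not analysed here.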

Additional observations from a re-analysis of the deposited data

How the results depend on the processing

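The share of desert peaks, 21.4%, moved with the definition: it was 30.6% beyond 25 kb, 12.96% beyond 100 kb and 29.5% when only transcripts with a gene name counted. It stayed within its interval when no base could touch a transcript, among peaks at or above the median score, and with joined sites. The median score stayed within its interval in all 4 alternatives. The 3 alternatives for the DNMT3B overlap could only give 0 and add no information. Requiring 50% of the peak or a high score was stricter than an overlap of 1 bp, which already gave 0. Allowing 1000 bp could not reach the closest DNMT3B peak, 14.8 kb away. The share with another peak within 10 kb, 25.2%, was 40.3% at 50 kb, 21.2% at or above the median score and 7.05% for joined sites. The share nearest to a called knockdown locus, 2.27%, was 4.24% with the named start on either side, a share not computed for other peaks. At the authors' p under 0.05 the desert share was 6.81%, since all 59 listed loci nearest to a desert peak passed. The share next to any listed locus was 8.33% for all ZBTB24 peaks and 8.14% over all named genes. Members per Mb went from 1.55 to 1.97 without intervals over 3 Mb. Joined sites and this last step were chosen after seeing the data.

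No replicate was left out, and no paired analysis was possible because the merged list holds no values per line. The planned ZBTB24 core motif and AP-1 motif searches were not run, since no hg19 sequence was used here.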
